A study of Mus musculus with 6 samples.

Results

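Gsta1, Gsta2, Gstm1 and Gpx3 are 4 genes of glutathione-dependent detoxification, and they were taken by name from a table of 3201 genes measured by RNA-seq in whole mouse livers. All 4 names were found in the table, each with a value in every liver, and no filter on low values removed any of them. The livers came from 3 Fgf18 f/f mice (labelled IR, livers 1 to 3), in which both copies of Fgf18 carry loxP sites but are intact, and from 3 Fgf18△HSC mice (labelled 18KO, livers 1 to 3), in which a GFAP-Cre transgene removes Fgf18 from hepatic stellate cells, the vitamin A-storing cells of the sinusoid. The mice were male and on a C57BL/6 background, and their age is not given in the sources used here. All 6 livers had been through 70% partial warm ischemia for 1 h followed by 6 h of reperfusion (I/R), so the injury is shared by both groups and no liver without it was analysed here. For the Fgf18 f/f livers the labels name the treatment only, and the genotype was taken from the study's text. Fgf18 itself was not analysed here, so the genotype was not checked against the deleted gene.

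Glutathione is a small sulfur-containing peptide that hepatocytes make in large amounts. Glutathione transferases (GSTs) join it to reactive compounds, among them the lipid aldehydes and quinones that form when oxygen returns to ischemic tissue, and the conjugates are then exported. The cytosolic GSTs fall into classes by sequence. Gsta1 and Gsta2 encode alpha-class subunits, which also reduce lipid hydroperoxides, and Gstm1 encodes a mu-class subunit that is abundant in hepatocytes. Many GST genes are known targets of the transcription factor Nrf2, the pathway the study examined. Gpx3 encodes the secreted, plasma form of glutathione peroxidase, a selenoprotein that reduces peroxides at the expense of glutathione and is made mainly in kidney tubules and adipose tissue.

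The table had been filtered before deposit, so that every gene in it differed between these same livers in the authors' own comparison, and the comparison of groups below therefore describes selected genes. Values were taken as TPM (transcripts of a gene per fixed total of transcripts in a library, with the length of each gene allowed for), so levels can be compared between genes per unit of length. The reads given here and below were worked back from these values and the gene lengths, since no counts were at hand. By this estimate the listed genes drew 3148789 to 4852009 reads in the Fgf18 f/f livers and 1574337 to 2094288 in the Fgf18△HSC livers. Their summed level was 7.14 to 7.93% of all TPM in the former and 3.89 to 3.99% in the latter. These shares hold only if the unit is TPM. Over the listed genes livers of the same group had a Pearson r of 0.988 to 0.993 (Fgf18 f/f) and 0.971 to 0.979 (Fgf18△HSC), and no liver stood apart from its group.

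The alpha-class genes lie in one cluster on mouse chromosome 9 (GRCm38). Gsta1 (ENSMUSG00000074183) spans chr9:78230656-78242684 on the plus strand and Gsta2 (ENSMUSG00000057933) spans chr9:78331018-78355788 on the minus strand. Another listed gene of the cluster, Gm3776, has the same exon structure. The coding sequences of Gsta1 and Gsta2 were identical at 655 of 669 aligned bases (97.9%), and those of Gsta1 and Gm3776 at 670 of 672 (99.7%). The stretches below are coding bases 550 to 669, which lie in exon 7 of 7 in each gene, and are shown because they let the reads of the 3 genes be told apart only at a few bases. They were read 5′ to 3′ on the coding strand from the GENCODE M21 transcripts, at chr9:78242456-78242575 for Gsta1, chr9:78331127-78331246 for Gsta2 and chr9:78268939-78269058 for Gm3776. Capitals mark bases that differ from Gsta1, 6 in Gsta2 and 1 in Gm3776.
Gsta1: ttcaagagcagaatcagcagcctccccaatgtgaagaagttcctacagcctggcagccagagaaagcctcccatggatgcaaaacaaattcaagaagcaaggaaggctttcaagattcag
Gsta2: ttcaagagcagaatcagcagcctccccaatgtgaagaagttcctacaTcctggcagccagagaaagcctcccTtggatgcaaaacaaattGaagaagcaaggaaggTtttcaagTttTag
Gm3776: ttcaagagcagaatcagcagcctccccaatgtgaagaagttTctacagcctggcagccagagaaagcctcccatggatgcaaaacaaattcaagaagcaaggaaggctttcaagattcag

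Gpx3 (ENSMUSG00000018339) lies alone at chr11:54902453-54910377 on the plus strand. Its coding bases 187 to 249, from exons 2 and 3 of 5 (chr11:54907226-54908548, GRCm38), are shown because they hold the feature that sets it apart from the GSTs. Codon 73 of 227 is an in-frame TGA, in capitals, which is read as selenocysteine, the catalytic residue of this peroxidase.
Gpx3: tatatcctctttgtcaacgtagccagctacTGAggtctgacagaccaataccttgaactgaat

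After I/R, the 3 GST genes were expressed at a lower level in Fgf18△HSC than in Fgf18 f/f livers, from 4.93-fold for Gsta1 to 9.28-fold for Gsta2, while Gpx3 was 2.40-fold higher. All 4 genes passed the test, which was limma on log2(TPM + 0.1) with Benjamini-Hochberg adjustment over the 3201 genes. Genes were called at an adjusted p under 0.05 with a log2 fold change beyond 1 in either direction. By the same test 71.7% of the listed genes were called, 41.6% as higher and 30.0% as lower in Fgf18△HSC livers, so a call by itself does not set the 4 genes apart from the table. In all 4 genes the values of the groups did not overlap, as in 96.3% of the listed genes. The fold changes given on the log2 scale include the added 0.1 TPM and understate the change of low genes, the more so the lower their level.

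**Figure D1:**
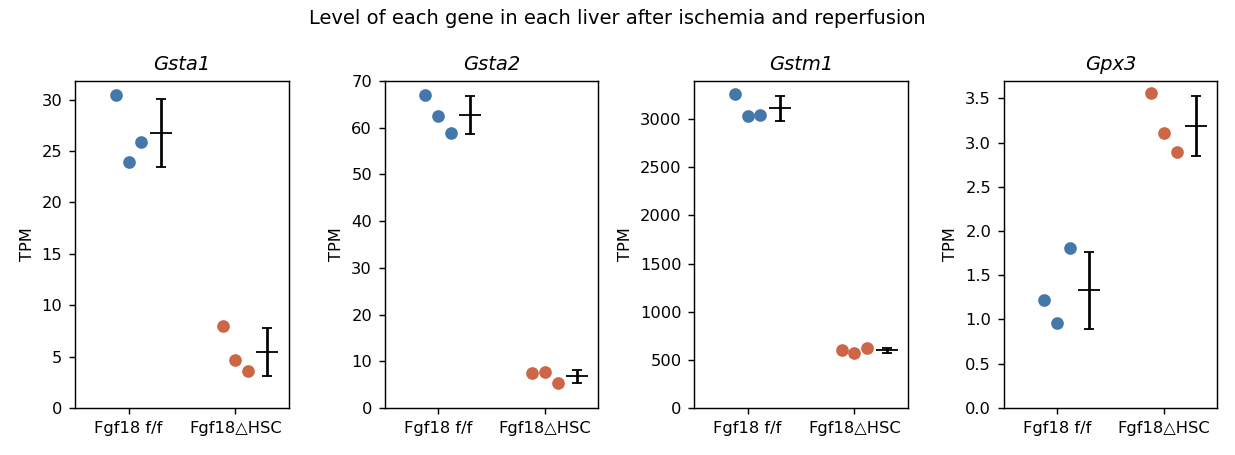
Level of Gsta1, Gsta2, Gstm1 and Gpx3 in TPM (linear axes from 0, a separate scale for each gene) in each of the 3 Fgf18 f/f and 3 Fgf18△HSC livers after I/R, with each dot a liver and the bars the mean ± SD. The groups are apart in each panel, lower in Fgf18△HSC livers for the 3 transferases and higher for Gpx3, whose call was lost when the livers were rescaled to each other (log2 fold change 0.41).

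Gsta2 changed most of the 4. Its level was 66.9, 62.5 and 58.9 TPM in Fgf18 f/f livers 1 to 3 and 7.37, 7.67 and 5.24 TPM in Fgf18△HSC livers 1 to 3. The Fgf18 f/f livers lay close together, and the lowest of them was still 7.67-fold above the highest Fgf18△HSC liver. The mean fell from 62.8 ± 4.04 to 6.76 ± 1.33 TPM (SD, n = 3 per group), a log2 fold change of -3.21 (SE 0.16, adjusted p = 9.03e-06, limma with Benjamini-Hochberg adjustment). Among the 1118 listed genes that were lower in Fgf18△HSC livers, Gsta2 ranked 20 by the size of its change. These levels rest on 1248 to 2109 reads in Fgf18 f/f livers and 122 to 180 reads in Fgf18△HSC livers.

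Gsta1, another alpha-class gene of the cluster, was at a lower level than Gsta2 in every Fgf18 f/f liver, an order that the shared reads described below may affect. Its level was 30.4, 23.9 and 25.8 TPM in Fgf18 f/f livers 1 to 3 and 8.02, 4.66 and 3.60 TPM in Fgf18△HSC livers 1 to 3. Fgf18△HSC liver 1 was the highest of its group, yet remained 2.99-fold under the lowest Fgf18 f/f liver. The mean fell from 26.7 ± 3.34 to 5.42 ± 2.31 TPM (SD, n = 3 per group), a log2 fold change of -2.35 (SE 0.27, adjusted p = 0.000124, limma with Benjamini-Hochberg adjustment). Gsta1 was the most variable of the 4 among Fgf18△HSC livers, with a coefficient of variation of 42.6% over 68 to 159 reads, against 19.6% for Gsta2 and 4.22% for Gstm1.

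Because of the near identity shown by the sequences above, part of the reads of the alpha-class genes cannot be told apart. Of all windows of 100 bases along the Gsta1 transcript, 81.8% occur word for word in a transcript of another gene (Gm3776, Gsta2 or Gm10639), as do 35.0% along the Gsta2 transcript and 85.5% along that of Gm3776. With windows of 150 bases these shares were 73.7% for Gsta1 and 26.8% for Gsta2, and the read length is not given in the sources used here. The split of reads between Gsta1 and Gsta2 is therefore uncertain. A read that is moved among these genes stays in their sum with Gm3776, though its weight there changes with the length of the gene. The joined exon lengths were 956 bases for Gsta1, 1177 for Gsta2 and 874 for Gm3776, so the sum still depends in part on the split. The sum also leaves out Gm10639, and shared reads may have been dropped from the count. Gsta1, Gsta2 and Gm3776 together made up 108, 95.0 and 92.5 TPM in Fgf18 f/f livers 1 to 3 and 17.1, 13.9 and 10.5 TPM in Fgf18△HSC livers 1 to 3. The sum was 7.12-fold lower in Fgf18△HSC livers (log2 fold change -2.85, SE 0.18, adjusted p = 1.65e-05, limma with Benjamini-Hochberg adjustment), and its groups did not overlap. Gsta2 held 62.1 to 65.7% of this sum in Fgf18 f/f livers and 43.1 to 55.2% in Fgf18△HSC livers, while Gsta1 held 25.2 to 28.3% and 33.5 to 46.9%.

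**Figure D2:**
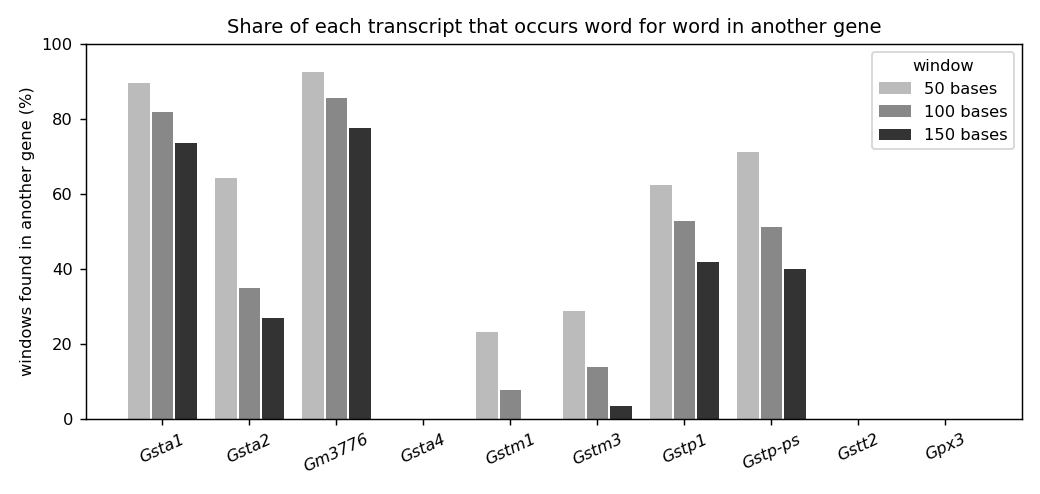
Percent of all windows of 50, 100 and 150 bases along the transcript of each gene (GENCODE M21, its principal transcript) that occur without mismatch in a transcript of another gene. Gsta1 (81.8% at 100 bases) and Gm3776 (85.5%) share most of their sequence, Gsta2 (35.0%) and Gstm1 (7.73%) share less, and Gpx3 shares none.

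Gstm1 (ENSMUSG00000058135, chr3:108012255-108017973, minus strand, GRCm38) was by far the most abundant of the 4 and the most even within each group. Its level was 3261, 3033 and 3042 TPM in Fgf18 f/f livers 1 to 3 and 603, 569 and 618 TPM in Fgf18△HSC livers 1 to 3. Within a group the livers differed by little, with a coefficient of variation of 4.15% in Fgf18 f/f and 4.22% in Fgf18△HSC livers, and the nearest livers of the groups were 4.91-fold apart. The mean fell from 3112 ± 129 to 597 ± 25.2 TPM (SD, n = 3 per group), 5.22-fold, with a log2 fold change of -2.38 (SE 0.11, adjusted p = 7.49e-06, limma with Benjamini-Hochberg adjustment).

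With 80705 to 128594 reads in Fgf18 f/f livers and 12804 to 18413 in Fgf18△HSC livers, the level of Gstm1 was the best determined of the 4. Gstm1 ranked 3 or 4 by level among the 3201 listed genes in Fgf18 f/f livers and between 5 and 8 in Fgf18△HSC livers. It made up 0.303 to 0.326% of all TPM in the former and 0.0569 to 0.0618% in the latter, if the unit is TPM. The summed level of the listed genes was 34646 TPM lower in Fgf18△HSC livers, and the 2515 TPM lost by Gstm1 alone was 7.26% of that difference. Its transcript shares 7.73% of its windows of 100 bases with other genes, chiefly the pseudogenes Gstm2-ps1 and Gm8834 and the mu-class gene Gstm3, and none of its windows of 150 bases.

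Gpx3 was the least abundant of the 4 and the only one that was higher in Fgf18△HSC livers. Its level was 1.22, 0.966 and 1.81 TPM in Fgf18 f/f livers 1 to 3 and 3.56, 3.10 and 2.90 TPM in Fgf18△HSC livers 1 to 3. The highest Fgf18 f/f liver, liver 3, was 1.6-fold under the lowest Fgf18△HSC liver, the narrowest gap of the 4 genes. The mean rose from 1.33 ± 0.432 to 3.19 ± 0.340 TPM (SD, n = 3 per group), a log2 fold change of 1.24 (SE 0.23, adjusted p = 0.00124, limma with Benjamini-Hochberg adjustment).

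Only 39 to 59 reads in Fgf18 f/f livers and 86 to 134 reads in Fgf18△HSC livers lie behind the level of Gpx3. By the size of its change it ranked 809 of the 2083 listed genes that were higher in Fgf18△HSC livers. The livers were also rescaled so that the median, over listed genes, of a gene's level relative to its own mean was the same in each. The log2 fold change of Gpx3 was then 0.41 (SE 0.23, adjusted p = 0.147, limma with Benjamini-Hochberg adjustment) and the call was lost. The scale came from these selected genes, 2083 higher and 1118 lower, and shifted log2 fold changes down (median -0.74). A modest higher call can be lost through that shift alone, so the loss does not decide whether Gpx3 rose. None of its windows of 50 bases or more occur in a transcript of another gene.

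The order of levels in the 3 Fgf18 f/f livers was Gstm1, Gsta2, Gsta1 and Gpx3, with no overlap between neighbours. In the Fgf18△HSC livers Gstm1 remained far above the others, but Gsta2 (5.24 to 7.67 TPM) and Gsta1 (3.60 to 8.02 TPM) overlapped, and in liver 1 Gsta1 was the higher of them. The highest level of Gpx3 (3.56 TPM) nearly reached the lowest level of Gsta1 (3.60 TPM) there.

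Whether the 4 genes changed to the same extent was asked with the ratio of each pair within a liver, which does not depend on how the livers are scaled to each other. With 3 livers against 3, the exact two-sided permutation test cannot go below p = 0.1, and 5 of the 6 pairs were at this limit (0.12 after Benjamini-Hochberg adjustment over the 6 pairs). None of these differences can therefore pass a threshold of 0.05, and their size and overlap are given as a description.

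The ratio of Gsta2 to Gsta1 was 2.20, 2.61 and 2.28 in Fgf18 f/f livers 1 to 3 and 0.920, 1.65 and 1.46 in Fgf18△HSC livers 1 to 3. It was thus 1.81-fold lower in the Fgf18△HSC livers, with no overlap (difference -0.85 on the log2 scale, p = 0.1, exact permutation test, n = 3 per group). The ratio of Gstm1 to Gsta2 was 48.7, 48.6 and 51.7 in Fgf18 f/f livers 1 to 3 and 81.7, 74.1 and 118 in Fgf18△HSC livers 1 to 3. It was 1.80-fold higher in the Fgf18△HSC livers, with no overlap (p = 0.1, exact permutation test, n = 3 per group). Since the split of reads between Gsta1 and Gsta2 is uncertain, so is the size of each ratio that holds either of them, that of Gsta2 to Gsta1 most of all.

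The ratio of Gstm1 to Gsta1 did not separate the groups. It was 107, 127 and 118 in Fgf18 f/f livers 1 to 3 and 75.2, 122 and 172 in Fgf18△HSC livers 1 to 3, so that the Fgf18△HSC livers lay on either side of the others. The difference on the log2 scale was -0.01 (p = 1, exact permutation test, n = 3 per group) and went from -0.29 to 0.31 as each liver was left out in turn, which leaves room for a difference in either direction.

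Gpx3 gained on each of the transferases. The ratio of Gpx3 to Gsta2 was 0.0182, 0.0155 and 0.0307 in Fgf18 f/f livers 1 to 3 and 0.483, 0.405 and 0.553 in Fgf18△HSC livers 1 to 3, a 23.2-fold difference. Against Gsta1 and against Gstm1 the difference was 12.9-fold in each case, again with no overlap (p = 0.1 each, exact permutation test, n = 3 per group). Over the 3 pairs the log2 difference as each liver was left out lay between 3.49 and 4.83.

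**Figure D3:**
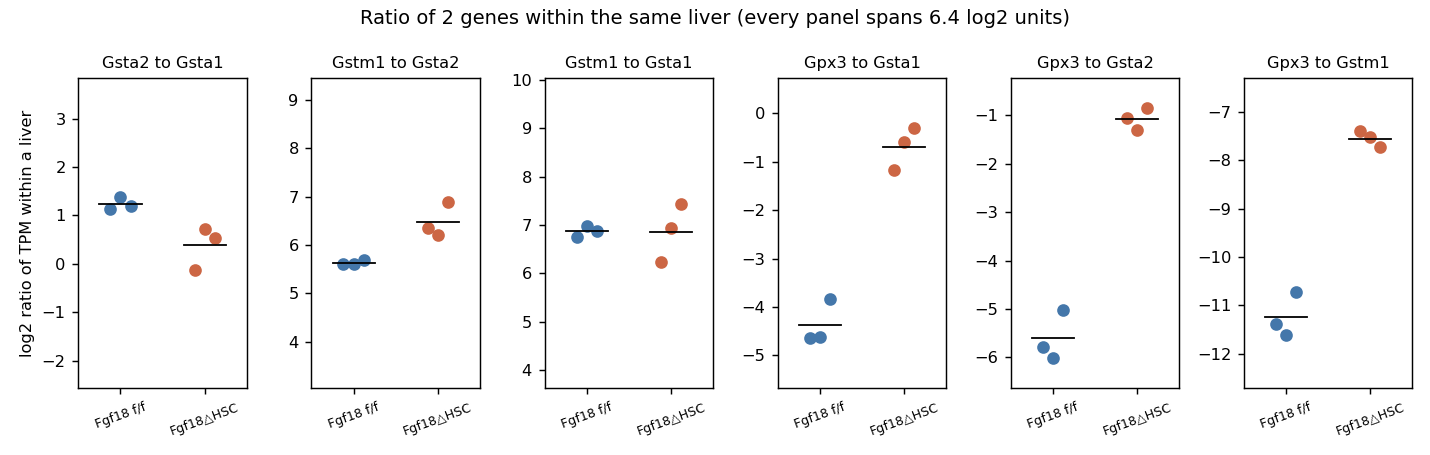
Ratio of the TPM of 2 genes within the same liver on a log2 axis, every panel spanning the same number of log2 units, for all 6 pairs of Gsta1, Gsta2, Gstm1 and Gpx3. Dots are livers and lines are group means, and the groups overlap only for Gstm1 to Gsta1. The largest difference is that of Gpx3 to Gsta2 (4.54).

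The other glutathione genes were described from 5 lists of 70 genes in all, of which 16 are in the table and the rest were not analysed here. Of the 16, 11 were lower, 2 were higher (Gpx3 and Slc7a11) and 3 were not called in Fgf18△HSC livers. Their median log2 fold change was -1.45, beside 0.88 over all 3201 listed genes, of which 30.0% were called lower and 41.6% higher. Without the 4 genes described above, 12 remained, of which 8 were lower, 1 was higher and 3 were not called.

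All 9 listed cytosolic transferases were lower in Fgf18△HSC livers, with a median log2 fold change of -1.58, and their summed level went from between 5735 and 6111 TPM in Fgf18 f/f livers to between 1440 and 1638 TPM. Beside Gsta1, Gsta2 and Gstm1, they were the pi-class gene Gstp1 (-1.51), its chromosome 1 pseudogene Gstp-ps (-1.58), the mu-class gene Gstm3 (-1.39), the alpha-class genes Gsta4 (-1.58) and Gm3776 (-2.37), and the theta-class gene Gstt2 (4.85 ± 1.13 TPM after 9.73 ± 1.57 TPM, SD, n = 3 per group). Gstp1 was the second most abundant of them, at 1864, 1762 and 1872 TPM in Fgf18 f/f livers 1 to 3 and 715, 671 and 553 TPM in Fgf18△HSC livers 1 to 3. Gstp1 and Gstp-ps share 52.8% and 51.1% of their windows of 100 bases with other genes of the pi class, so the level of the pseudogene is uncertain. Gsta4, whose coding sequence is identical to that of Gsta1 at only 68.1% of aligned bases and which shares no window, was 65.1, 64.8 and 57.6 TPM in Fgf18 f/f livers 1 to 3 and 22.8, 21.7 and 18.3 TPM in Fgf18△HSC livers 1 to 3. Among the 9, Gsta2, Gstm1, Gm3776 and Gsta1 had the largest changes, and Gstt2 was just past the limit on the fold change.

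**Figure D4:**
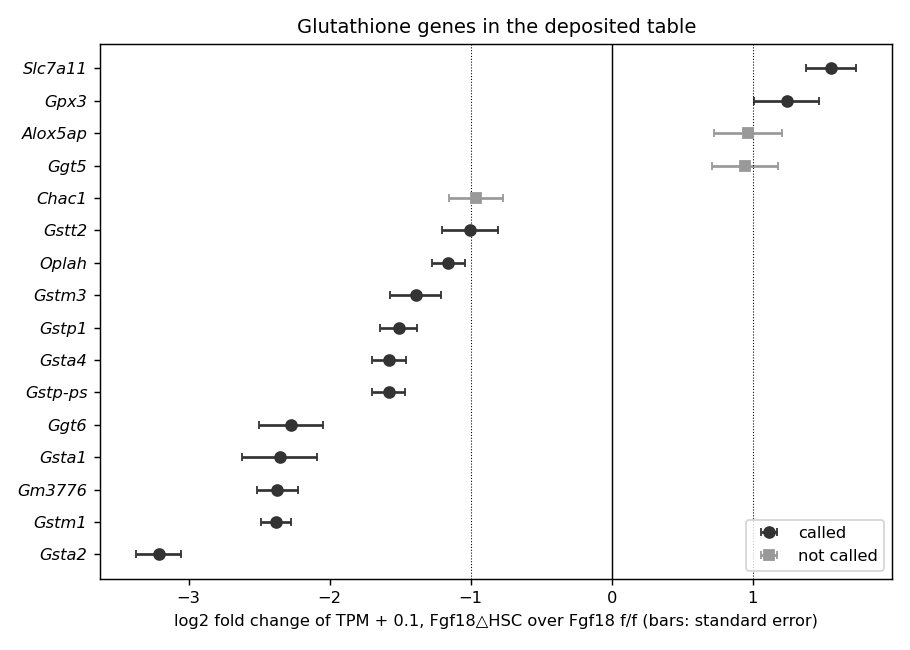
Log2 fold change of TPM + 0.1 (Fgf18△HSC over Fgf18 f/f) with its standard error for the 16 listed genes of glutathione metabolism, circles for called and squares for uncalled genes, dotted lines at the limit of 1 in either direction. The 9 cytosolic transferases run from -3.21 (Gsta2) to just past the limit (Gstt2), and Gpx3 (1.24) and Slc7a11 (1.56) are the 2 called as higher, neither of which was called when the livers were rescaled to each other.

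Of the genes that break glutathione down, Ggt6, a member of the gamma-glutamyltransferase family, fell from 41.4, 38.8 and 25.4 TPM to 7.85, 8.28 and 5.37 TPM (log2 fold change -2.27, adjusted p = 7.58e-05, limma with Benjamini-Hochberg adjustment). Oplah, the 5-oxoprolinase, fell from 21.9 ± 1.39 to 9.79 ± 0.823 TPM (-1.16, SD, n = 3 per group). Chac1, a glutathione-cleaving cyclotransferase of the stress response (-0.96), and Ggt5, which also acts on leukotrienes (0.94), were not called. The mean of Ggt5 was 0.0989 TPM in Fgf18 f/f and 0.274 TPM in Fgf18△HSC livers, 2.77-fold higher, over 5 to 34 reads. Its log2 fold change is therefore strongly lowered by the added 0.1 TPM. Slc7a11, the cystine importer that feeds glutathione synthesis, rose from 0.413, 0.380 and 0.467 TPM to 1.30, 1.46 and 1.53 TPM (1.56, adjusted p = 0.000134, limma with Benjamini-Hochberg adjustment). Alox5ap, a membrane protein of leukotriene synthesis related to the microsomal transferases, was at 1.99 to 2.58 TPM in Fgf18 f/f and 3.69 to 6.83 TPM in Fgf18△HSC livers and was not called (0.97).

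Of 24 selenoproteins, 3 are in the table, and Gpx3 was the one that was higher. Dio1, a deiodinase that activates thyroid hormone, fell from a mean of 40.3 ± 5.43 to 17.3 ± 2.17 TPM (log2 fold change -1.21), and Selenoo, a mitochondrial selenoprotein, from 16.5 ± 0.761 to 7.55 ± 1.05 TPM (-1.12, SD, n = 3 per group).

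In a whole liver, fewer cells of a type and less RNA per cell cannot be told apart, so the levels above were set beside markers of the cell types of the liver. All 4 listed of 16 pericentral hepatocyte markers were lower in Fgf18△HSC livers (Glul, Cyp2e1, Cyp2c29 and Slc1a2, log2 fold change -1.67 to -1.09), and their summed level went from between 2603 and 2685 TPM to between 823 and 1095 TPM. All 5 listed of 15 periportal markers were also lower (Pck1, Etnppl, Hsd17b13, Asl and Uroc1, -2.23 to -1.01), from between 824 and 919 TPM to between 277 and 352 TPM. None of 10 pan-hepatocyte markers is in the table. The transferases were thus lower alongside these listed hepatocyte markers of both zones. Listed markers are in the table only because they differed between the groups, and the other markers were not analysed. By the same test 30.0% of all listed genes were called lower. The part of these markers in the result was not tested.

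As a share of the 9 summed hepatocyte markers, a measure chosen after the values were seen and given without a test, Gstm1 was 93.4, 88.5 and 84.4% in Fgf18 f/f livers 1 to 3 and 51.3, 39.6 and 51.5% in Fgf18△HSC livers 1 to 3, which is 1.87-fold lower. Gsta2 was 1.92, 1.82 and 1.63% and then 0.627, 0.534 and 0.436%, which is 3.36-fold lower. Gsta1 was 0.872, 0.699 and 0.717% and then 0.682, 0.324 and 0.299%. Gsta2 and Gstm1 thus lost more of their level than the summed markers did in each Fgf18△HSC liver, and so did Gsta1, though liver 1 lay close to the Fgf18 f/f livers. The sum holds only markers that differed between these groups, and Cyp2e1 (mean 1786 TPM in Fgf18 f/f livers) is its largest part.

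Gpx3 was higher alongside listed markers of several non-hepatocyte cells, which are in the table only because they differed between these groups. Over all listed genes 41.6% were called higher and 30.0% lower in Fgf18△HSC livers. All 3 listed of 8 sinusoidal endothelial markers were higher in Fgf18△HSC livers, and their summed level went from between 11.9 and 14.4 TPM to between 26.5 and 38.8 TPM. Of 11 stellate cell markers 8 are in the table and 6 were called higher (7.13 to 9.14 TPM and then 19.6 to 30.0 TPM), and of 9 macrophage markers 3 are in the table and 2 were called higher (13.4 to 14.6 TPM and then 31.9 to 50.4 TPM). With the livers rescaled to each other these calls went to 0 of the 3 endothelial, 3 of the 8 stellate and 0 of the 3 macrophage markers, as the call of Gpx3 was lost. All 5 listed of 7 erythroid markers were higher as well, from between 71.0 and 116 TPM to between 396 and 539 TPM. Of 9 neutrophil markers 6 are in the table, with 3 higher and 3 lower (20.8 to 23.8 TPM in all and then up to 47.0 TPM, the groups overlapping). After rescaling 4 of the 5 erythroid and 1 of the 6 neutrophil markers were called higher. Of the tissues known to make Gpx3, adipose tissue was represented by 1 of 10 markers, Fabp4, which was higher (3.12 to 4.93 TPM and then 8.69 to 12.6 TPM) but not called after rescaling, and kidney tubule by none of 8. As a share of the 11 listed endothelial and stellate markers, again without a test, Gpx3 was 6.18, 4.94 and 7.69% in Fgf18 f/f livers 1 to 3 and 7.37, 5.49 and 4.65% in Fgf18△HSC livers 1 to 3, and the groups overlapped. The part of these cell types in the level of Gpx3 was not tested.

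The genes with the most similar profile over the 6 livers were sought among the 1423 listed genes that averaged 1 TPM or more, with Pearson's r on log2(TPM + 0.1) as the measure of likeness. Since nearly all listed genes separate these groups, high r values were common, and 634 genes had an r above 0.95 with Gsta2, 648 with Gstm1 and 454 with Gsta1 but 79 with Gpx3. Closest to Gsta2 were Pde3b, Zfp949 and Gm20528 (r of at least 0.999), closest to Gstm1 were Nampt, Ces1d and Asah2 (0.999 each), and closest to Gsta1 were Smpd2 (0.998), Fn3k (0.996) and Gm17024 (0.995). Nampt, the enzyme that makes the NAD precursor nicotinamide mononucleotide, was 51.4, 49.0 and 45.0 TPM in Fgf18 f/f livers 1 to 3 and 9.11, 8.55 and 9.71 TPM in Fgf18△HSC livers 1 to 3, nearly the fold of Gstm1. Closest to Gpx3 were Raet1e (0.995), Srrm4 (0.991) and Gm13597 (0.990), all of them low, at mean levels of 0.586 to 5.30 TPM.

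The regions just before the start of Gsta1 and Gsta2 were also compared, since both lie in the chromosome 9 cluster and were lower in Fgf18△HSC livers. Over the 250 bases before each start (RefSeq, GRCm38.p6), 184 of 239 aligned bases were identical (77.0%), less than in the coding sequences. The RefSeq start of Gsta2 lies inside the GENCODE span given above, so its window does not precede that whole span. The last 120 of these bases are shown 5′ to 3′ on the strand of the gene, at chr9:78230549-78230668 (plus strand) for Gsta1 and chr9:78347146-78347265 (minus strand) for Gsta2. Capitals mark bases that differ from, or have no partner in, the other gene.
Gsta1: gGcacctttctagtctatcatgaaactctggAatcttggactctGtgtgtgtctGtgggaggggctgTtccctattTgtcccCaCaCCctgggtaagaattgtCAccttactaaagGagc
Gsta2: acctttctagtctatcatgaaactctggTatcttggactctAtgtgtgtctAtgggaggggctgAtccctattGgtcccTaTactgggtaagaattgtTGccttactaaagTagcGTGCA

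The core of the antioxidant response element, TGACNNNGC, was looked for on both strands of the 250 bases before each start. It occurred in none of the 4 genes, and in 10.2% of 32851 RefSeq promoter windows of the same length. The absence says only that these letters are not in this window. The windows of Gsta2 and Gpx3 lie inside the gene spans given above, so starts at the ends of those spans were not searched. The core of the xenobiotic response element, GCGTG, occurred at -7 in Gsta2 and at -76 from the upstream start of Gstm1, and in 28.2% of all windows. It was not in the windows of Gsta1 or Gpx3. The match in Gsta2 runs into the last bases of its window, which have no partner within the Gsta1 window. The matching bases of Gsta1 were therefore not searched. TATAAA occurred at -30 from the downstream start of Gstm1 and at -246 in Gsta2, and in 12.4% of all windows. No match of one motif overlapped a match of another.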

How the data were processed

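RNA was isolated with Trizol for stranded mRNA libraries. The authors trimmed reads with cutadapt 2.5, aligned them to GRCm38 with HISAT2 2.1.0, counted them per gene with featureCounts 1.6.3 and compared groups with DESeq2, per their methods and processing notes. The authors deposited a table of 3201 genes with 1 value per gene and liver, whose unit is not named and was taken here as TPM. Each value was multiplied by joined exon length and divided by a scale that was chosen for each liver to give whole reads. Of the values under 5000 reads, 92.2 to 92.6% then came out whole within 0.02 reads. Values per unit of length that were scaled by the reads of a library would pass the same check, so the unit is an assumption. The authors' log2 fold changes and p-values, deposited beside the values, were not used except to see the filter on the table. None of the fold changes was nearer to 0 than 1 on the log2 scale, and no unadjusted p-value reached 0.05. The authors' adjusted p-value was 0.05 or more for 575 of the genes. No counts were at hand, so limma 3.58.1 in R 4.3.3 (lmFit, eBayes with trend) was run on log2(TPM + 0.1) over all genes in place of the authors' DESeq2 test, and was tested on simulated data. Ratios were tested by exact permutation in Python 3.11.15. Livers are separate animals (3 per group). GENCODE M21 matched 3196 genes. How reads that fit several genes were counted is not given in the sources used here. Members and gene lists were chosen with earlier results of these data known. Named genes were the 4 members, all listed glutathione genes, selenoproteins and hepatocyte markers, and the 3 genes most like each member. Other markers named lie outside this rule. Alternatives were pseudocounts of 1 and 0.01, livers rescaled by the median ratio, genes averaging 1 TPM or more, no trend, protein-coding genes alone, voom on recovered reads, a replicate block, and each liver left out.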

Additional observations from a re-analysis of the deposited data

How the results depend on the processing

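Gsta1, Gsta2 and Gstm1 kept their direction and their call under each of 15, 15 and 14 alternatives, with log2 fold changes of -3.23 to -2.10, -4.09 to -2.85 and -3.26 to -2.35. The alternatives for the alpha-class genes include their sum with Gm3776, added after the data were seen. Gpx3 kept its call in 12 of 14 (range 0.41 to 1.47), and lost it with a pseudocount of 1 (0.86, under the limit on the fold change) and when the livers were rescaled by the median ratio (0.41). That rescaling took the median log2 fold change of all listed genes from 0.88 to 0.30 and the share of higher calls from 58.1% to 24.1%. The transferases were further down (Gsta2 -4.09, Gstm1 -3.26, Gsta1 -3.23).

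Of 2294 called genes (1333 higher, 961 lower), 1466 (353 higher) were called after rescaling, 1309 (522 higher) among genes averaging 1 TPM or more, and 832 (266 higher, 566 lower) with a pseudocount of 1. With a pseudocount of 0.01, 1995 were higher and 1048 lower (65.6% higher). The share was 32.0% with a pseudocount of 1. By voom on the recovered reads of 2954 genes, 1890 were higher and 972 lower. The 2 glutathione genes called higher became 0 after rescaling, 1 among genes averaging 1 TPM or more and 0 with a pseudocount of 1. As each liver was left out they were 2 to 4, with 4 without Fgf18 f/f liver 1.

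Deviations of same-numbered livers had correlations of 0.01 to 0.06, within the range of differently numbered livers (-0.09 to 0.06). With 3 livers per group, whether the livers were paired by number cannot be told from this. With the replicate number as a block, 1337 genes were higher and 963 lower, Gpx3 was at 1.24, and all 4 genes kept their calls. No ratio of a pair changed its direction beyond its spread as a liver was left out.

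Depth limits Gpx3 most, with 39 to 134 reads, and the Fgf18△HSC levels of Gsta1, with 68 to 159 reads. The table holds selected genes, so nothing can be said of glutathione genes outside it.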
